A study of Homo sapiens with 8 samples.

Results

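The genes described here are 33 genes of cholesterol and fatty acid synthesis, among them the enzymes that build both lipids, the SREBP transcription factors with the proteins that hold or release them, and a few genes of cholesterol transport and LXR signalling. They were picked by gene symbol, as 33 of the 25369 named genes in the deposited count table, and 32 of them passed the filter on low counts. Their levels were followed in 8 poly(A) RNA sequencing libraries of human ovarian cancer cells, 2 in each of 4 groups. BRCA1-null cells are UWB1.289, an ovarian carcinoma line that lacks functional BRCA1, and BRCA1+ cells are the same line after BRCA1 was put back by transduction; both came from a cell bank and were grown in one serum-containing medium. Each line received the DMSO vehicle, called control, or 0.5 uM entinostat, an inhibitor of histone deacetylases HDAC1 and HDAC3, for 24 h. The comparisons ask how gene expression differs with BRCA1 status, how each line responds to entinostat, and whether the responses differ. Every comparison of BRCA1 status rests on 1 line and 1 derivative of it, so the restored gene cannot be told apart from other differences that arose between these cultures.

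Cholesterol is built from acetyl-CoA. The mevalonate pathway makes isoprenoid units and joins them to farnesyl diphosphate, after which a further series of enzymes forms squalene, closes it into lanosterol and trims lanosterol to cholesterol. Fatty acids are made from the same acetyl-CoA by ATP citrate lyase, acetyl-CoA carboxylase, fatty acid synthase and a desaturase. The SREBP factors switch most of these genes on when membranes run short of sterols: SCAP escorts them out of the endoplasmic reticulum, INSIG proteins keep them there when sterols are plentiful, and at many target promoters they bind next to the factor NF-Y. The LXR receptors answer to oxysterols and raise export of cholesterol, in large part through ABCA1.

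The libraries held 31900158 to 53549893 counts. BRCA1 itself had 3954, 4239, 4233 and 5473 counts in the 4 BRCA1+ libraries (controls first) and 954, 1218, 824 and 800 in the 4 BRCA1-null ones, which fits the labels in all 8. All 5 epithelial markers (EPCAM, CDH1, KRT8, KRT18, KRT19) exceeded 1 CPM in every library, where CPM are counts scaled to an effective library size of 1000000, as did 3 of 4 ovarian carcinoma markers (PAX8, MUC16, MSLN, but not WT1). Markers of other cells were low, at a summed level of 0 to 0.927 CPM for fibroblasts (DCN and LUM at 0 in each library), 4.88 to 10.5 CPM for leukocytes, 4.73 to 10.3 CPM for endothelium, 0.700 to 2.65 CPM for adipocytes and 1.49 to 16.5 CPM for hepatocytes, the last from SERPINA1. In bulk cultures, fewer cells that make an RNA and less of it per cell cannot be told apart.

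The promoters below are marked for a few motifs of factors known to act on this pathway. No LXR element was searched for, so the ABCA1 window may hold one that is unmarked. RefSeq windows (GRCh38.p14) from 250 bases before to 50 bases after the transcription start were found for 28 of the 33 genes, and both strands were searched for the sterol response element (TCACNCCAC), the NF-Y box (CCAAT, read as ATTGG on the other strand) and the E-box (CACGTG). The 7 sequences printed are 1 window each of the genes that differed between the lines in DMSO and held the sterol response element, the E-box or at least 4 NF-Y boxes. Letters in capitals mark a match to 1 of the motifs, and in these windows no matches overlapped.
MVK (chr12:109573544-109573843, plus strand): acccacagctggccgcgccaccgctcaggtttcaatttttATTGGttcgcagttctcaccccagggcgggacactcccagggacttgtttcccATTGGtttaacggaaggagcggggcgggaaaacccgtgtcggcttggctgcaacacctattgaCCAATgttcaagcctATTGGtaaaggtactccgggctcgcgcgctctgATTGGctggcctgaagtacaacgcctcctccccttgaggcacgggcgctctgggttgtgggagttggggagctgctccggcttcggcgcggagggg
MSMO1 (chr4:165327419-165327718, plus strand): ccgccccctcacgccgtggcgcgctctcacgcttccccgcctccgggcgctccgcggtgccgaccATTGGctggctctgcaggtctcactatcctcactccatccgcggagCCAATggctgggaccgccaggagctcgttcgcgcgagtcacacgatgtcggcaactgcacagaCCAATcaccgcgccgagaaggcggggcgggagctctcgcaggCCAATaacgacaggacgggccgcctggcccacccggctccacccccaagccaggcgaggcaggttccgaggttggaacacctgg
LSS (chr21:46228725-46229024, minus strand): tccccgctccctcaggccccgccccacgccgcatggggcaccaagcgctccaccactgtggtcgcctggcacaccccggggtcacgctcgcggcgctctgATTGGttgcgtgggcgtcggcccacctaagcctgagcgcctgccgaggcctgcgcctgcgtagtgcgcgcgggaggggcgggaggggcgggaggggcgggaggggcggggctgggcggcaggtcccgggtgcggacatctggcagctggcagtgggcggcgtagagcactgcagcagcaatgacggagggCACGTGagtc
SC5D (chr11:121292521-121292820, plus strand): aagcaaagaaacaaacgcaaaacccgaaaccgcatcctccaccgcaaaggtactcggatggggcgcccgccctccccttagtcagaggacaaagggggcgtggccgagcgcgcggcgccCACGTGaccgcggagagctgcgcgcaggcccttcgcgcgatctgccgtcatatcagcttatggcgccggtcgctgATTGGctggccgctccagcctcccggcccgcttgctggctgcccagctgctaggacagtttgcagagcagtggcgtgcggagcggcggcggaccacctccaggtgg
SREBF2 (chr22:41832855-41833154, plus strand): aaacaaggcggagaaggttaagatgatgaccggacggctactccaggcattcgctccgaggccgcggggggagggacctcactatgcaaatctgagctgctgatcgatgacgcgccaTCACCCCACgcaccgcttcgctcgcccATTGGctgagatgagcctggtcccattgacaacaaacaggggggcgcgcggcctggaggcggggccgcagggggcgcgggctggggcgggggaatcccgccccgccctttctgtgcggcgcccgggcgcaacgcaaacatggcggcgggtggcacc
INSIG1 (chr7:155297628-155297927, plus strand): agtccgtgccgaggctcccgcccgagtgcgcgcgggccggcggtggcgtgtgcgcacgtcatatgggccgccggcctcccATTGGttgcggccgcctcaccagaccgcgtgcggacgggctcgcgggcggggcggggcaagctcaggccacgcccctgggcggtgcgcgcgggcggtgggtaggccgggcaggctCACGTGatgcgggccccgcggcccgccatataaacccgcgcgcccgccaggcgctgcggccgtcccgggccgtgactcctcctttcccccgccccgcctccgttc
ABCA1 (chr9:104928106-104928405, minus strand): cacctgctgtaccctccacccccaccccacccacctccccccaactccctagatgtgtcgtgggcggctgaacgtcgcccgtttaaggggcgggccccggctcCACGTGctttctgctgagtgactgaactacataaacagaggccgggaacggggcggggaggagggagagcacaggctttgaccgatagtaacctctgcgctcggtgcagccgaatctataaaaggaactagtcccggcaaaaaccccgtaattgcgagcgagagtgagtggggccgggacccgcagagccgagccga
A match describes the sequence only and is not a measured binding site.

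The NF-Y box was the commonest of these motifs. It lay in a window of 20 of the 28 genes (71.4%), against 39.7% of the 27305 genes in the RefSeq table. MVK and the unprinted NSDHL held 5 boxes each and MSMO1 held 4. Of the 16 genes with a window that were lower in BRCA1-null cells in DMSO, 14 held the box, and of the other 12 genes 6 did. Those 12 include most of the SREBP regulators and of the transport and LXR genes, so role and call are mixed. The share among all lower genes was not computed, and a link between the box and lower levels was not tested. The exceptions among the lower genes were CYP51A1 and NR1H2. The strict 9-letter sterol response element was present in SREBF2 alone (1.39% of genes in the table), starting at position -133 from the first transcribed base, with an NF-Y box at -106. The E-box occurred in 5 of 28 genes (17.9%, against 8.77% of genes in the table), at -147 in ABCA1, -131 in SC5D, -55 in INSIG1 and 40 in LSS, and also in SCAP, which did not differ between the lines.

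The genes spanned a wide range of expression. Per length of gene, in RPKM (CPM per kilobase of the gene's length in the deposited table), the highest means in BRCA1+ control cells were those of FDPS at 262, SCD at 136, DHCR7 at 134, FASN at 131, ACLY at 116, ACAT2 at 111 and SQLE at 104. Those are enzymes of the 2 synthesis pathways. The lowest of the tested genes was ABCA1, the cholesterol exporter, at 0.447 RPKM. The related exporter ABCG1 was near the limit of counting, with 0, 1, 1 and 2 counts in the BRCA1+ libraries and 2, 1, 12 and 0 in the BRCA1-null ones (controls first). It was not tested, and 3 counts, the limit that a count of 0 allows, correspond to 0.0552 to 0.0946 CPM in these libraries (counting error only).

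BRCA1-null cells carried less RNA for most of the cholesterol pathway than BRCA1+ cells in DMSO. Of the 32 tested genes, 20 were lower and 2 were higher (adjusted p under 0.05 in edgeR's quasi-likelihood test, adjusted over 17714 genes), and 10 did not pass. That is 22 of 32 or 68.8% called, where 42.2% of all tested genes were called. The lower genes made up 62.5% of the 32, against 21% of all tested genes, and the median log2 fold change was -0.41, against 0.012 over all tested genes. All 18 enzymes of sterol synthesis had negative values and 15 of them were called, with a median of -0.63. None of these counts carries a test of the list itself. The call held for 15 of the 22 genes under the 18 alternative settings that asked for the adjusted p alone (2 were left when a log2 fold change of at least 1 in size was also required), and the other 7 lost it when 1 of the control libraries was left out. Their highest adjusted p over the alternatives was 0.0776 for MVK, 0.183 for SQLE, 0.157 for HSD17B7, 0.273 for INSIG1, 0.197 for FASN, 0.0509 for NR1H2 and 0.178 for NR1H3. The count of 22 became 16 without BRCA1+ control replicate 1, 20 without BRCA1+ control replicate 2, 18 without BRCA1-null control replicate 1 and 17 without BRCA1-null control replicate 2. The heat map by library shows where the difference lies.

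**Figure D1:**
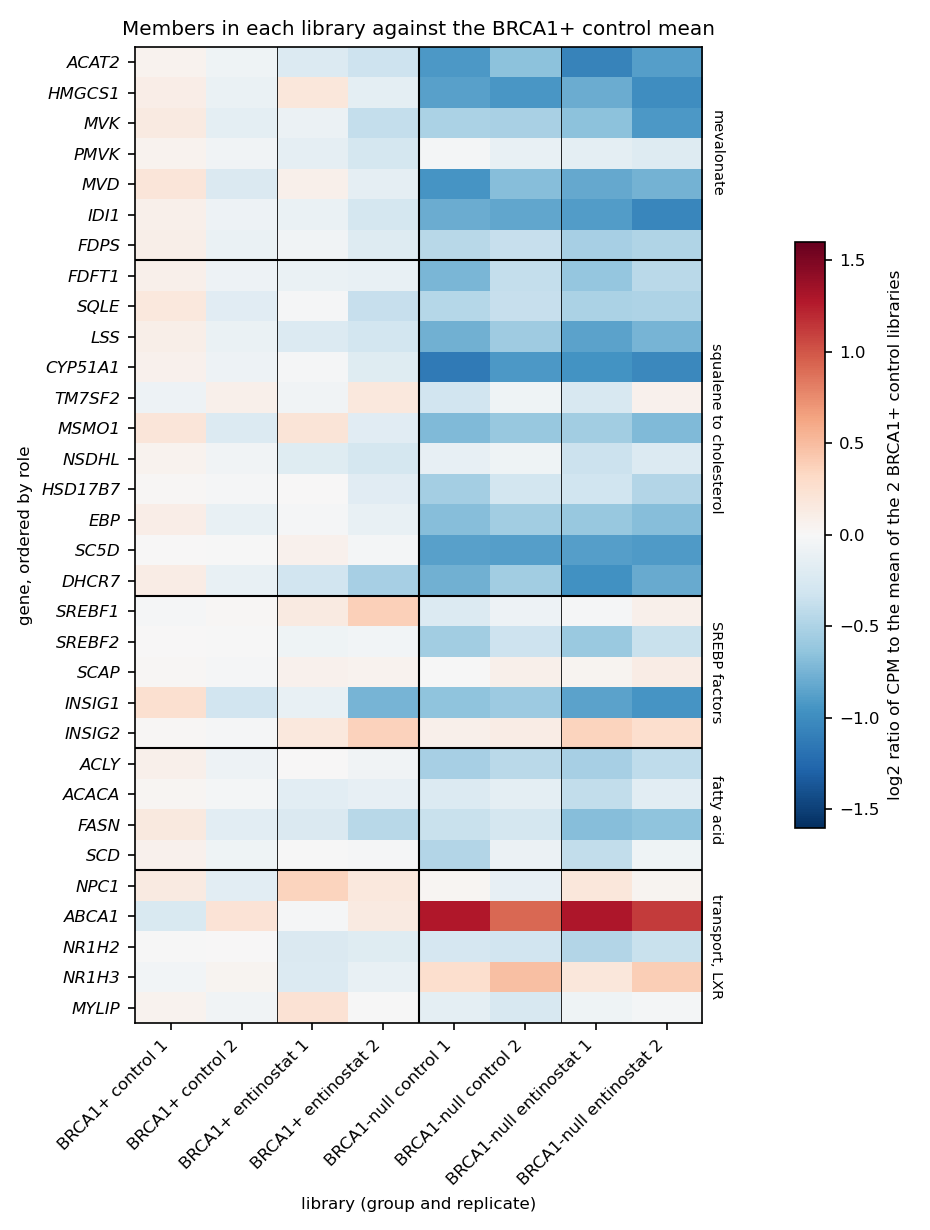
Heat map of the 32 tested genes (vertical axis, by role) in the 8 libraries (horizontal axis), with colour giving the log2 ratio of CPM to the mean of the 2 BRCA1+ control libraries. Blue marks lower and red higher levels: most sterol enzymes are blue in all 4 BRCA1-null libraries, from replicate to replicate and with or without entinostat, while ABCA1 and NR1H3 are red there.

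In the mevalonate pathway 6 of 7 genes were lower in BRCA1-null cells in DMSO, with a median log2 fold change of -0.78. HMGCS1, which makes HMG-CoA (hg19 chr5:43287572-43313614, minus strand), stood at 184 and 159 CPM in BRCA1+ control and at 93.9 and 89.9 CPM in BRCA1-null control libraries. Under entinostat its levels were 195 and 154 CPM in BRCA1+ and 99.4 and 86.3 CPM in BRCA1-null cells. The lines did not overlap under either treatment. Lack of overlap was part of the rule that chose the genes given with all 8 libraries. It is therefore not a further result for them, here or below, and the share over all tested genes was not computed. The log2 fold change was -0.90 ± 0.117 (SE, adjusted p = 0.000301) in DMSO, so that BRCA1-null cells had 53.5% of the BRCA1+ level.

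The first enzyme of the route, the thiolase ACAT2 (hg19 chr6:160182989-160200087, plus strand), had 179.7 and 165 CPM in BRCA1+ control, 90.8 and 109 CPM in BRCA1-null control, 148 and 137 CPM in BRCA1+ entinostat, and 82.2 and 93.9 CPM in BRCA1-null entinostat libraries. In DMSO the lines differed by a log2 fold change of -0.78 ± 0.0992 (adjusted p = 0.000273). The lines were again apart in both treatments. ACAT2 overlaps TCP1 on the other strand, and how the counting treated strand is not given in the sources used here.

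MVD, which decarboxylates mevalonate diphosphate (hg19 chr16:88718348-88729495, minus strand), had 176 and 131 CPM in BRCA1+ control and 80.1 and 95.6 CPM in BRCA1-null control libraries. Entinostat libraries read 163 and 139 CPM against 87.0 and 90.8 CPM. The 2 BRCA1+ control libraries lay far from each other for this gene, but both were above every BRCA1-null library. The log2 fold change in DMSO was -0.80 ± 0.138 (adjusted p = 0.00153).

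The next enzyme, the isomerase IDI1 (hg19 chr10:1085964-1095061, minus strand), showed 137 and 122 CPM in BRCA1+ control, 74.5 and 73.0 CPM in BRCA1-null control, 120.2 and 107 CPM in BRCA1+ entinostat, and 69.5 and 62.9 CPM in BRCA1-null entinostat libraries. With a log2 fold change of -0.81 ± 0.0830 in DMSO (adjusted p = 7.66e-05) its replicates were closer than those of MVD. IDI1 overlaps the antisense gene IDI2-AS1. Mevalonate kinase, MVK (hg19 chr12:110011500-110035071, plus strand), had 64.3 and 52.0 CPM in BRCA1+ control and 40.9 and 40.5 CPM in BRCA1-null control libraries, and 54.6 and 44.7 CPM against 37.0 and 30.7 CPM under entinostat. Its difference in DMSO was -0.51 ± 0.130 on the log2 scale (adjusted p = 0.0116), and its promoter is printed above with 5 NF-Y boxes. FDPS, farnesyl diphosphate synthase, ranged from 402 to 460.1 CPM in BRCA1+ control and from 315 to 334 CPM in BRCA1-null control libraries (log2 fold change -0.41 ± 0.0765, adjusted p = 0.00254). PMVK, phosphomevalonate kinase, was the member that did not pass, with overlapping lines and a log2 fold change of -0.07 ± 0.0826 (adjusted p = 0.523).

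Of the 11 genes from squalene to cholesterol, 9 were lower in BRCA1-null cells in DMSO, with a median log2 fold change of -0.62. CYP51A1, the demethylase that acts on lanosterol (hg19 chr7:91741463-91764059, minus strand), differed most among all 33 genes in the lower direction. It stood at 261 and 235 CPM in BRCA1+ control and at 113 and 131 CPM in BRCA1-null control libraries, and at 245 and 216 CPM against 127 and 121 CPM under entinostat. No BRCA1-null library came near a BRCA1+ library. The log2 fold change in DMSO was -1.02 ± 0.0912 (adjusted p = 3.59e-05), or 49.3% of the BRCA1+ level.

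SC5D, a desaturase of the last steps (hg19 chr11:121163388-121184119, plus strand), had the smallest error of the list. Its levels were 182 and 181 CPM in BRCA1+ control, 99.9 and 98.3 CPM in BRCA1-null control, 190.1 and 178 CPM in BRCA1+ entinostat, and 99.0 and 96.9 CPM in BRCA1-null entinostat libraries. The 4 libraries of a line thus lay close together whatever the treatment. The log2 fold change in DMSO was -0.87 ± 0.0557 (adjusted p = 6.15e-06), the lowest adjusted p among the 32 genes.

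Lanosterol synthase, LSS (hg19 chr21:47608360-47648738, minus strand), had 132 and 115 CPM in BRCA1+ control, 72.6 and 83.3 CPM in BRCA1-null control, 106 and 101 CPM in BRCA1+ entinostat, and 68.4 and 74.0 CPM in BRCA1-null entinostat libraries. DHCR7, the reductase of the final step (hg19 chr11:71145457-71159477, minus strand), had 386 and 328 CPM in BRCA1+ control, 210.1 and 242 CPM in BRCA1-null control, 288 and 248 CPM in BRCA1+ entinostat, and 183 and 205 CPM in BRCA1-null entinostat libraries. For both enzymes the lines did not overlap within a treatment, and for DHCR7 the BRCA1+ libraries themselves stepped down with entinostat. The log2 fold changes between the lines in DMSO were -0.66 ± 0.0905 for LSS (adjusted p = 0.000409) and -0.66 ± 0.107 for DHCR7 (adjusted p = 0.00114).

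MSMO1, a sterol methyl oxidase (hg19 chr4:166248818-166264314, plus strand), was at 111 and 84.0 CPM in BRCA1+ control and at 59.9 and 64.4 CPM in BRCA1-null control libraries, with 112 and 86.3 CPM against 66.6 and 60.0 CPM under entinostat. In both BRCA1+ groups replicate 1 was the higher one. EBP, the sterol isomerase (hg19 chrX:48380164-48387104, plus strand), read 73.8 and 63.2 CPM in BRCA1+ control, 42.9 and 46.4 CPM in BRCA1-null control, 67.4 and 62.9 CPM in BRCA1+ entinostat, and 44.9 and 42.6 CPM in BRCA1-null entinostat libraries. The log2 fold changes in DMSO were -0.65 ± 0.148 for MSMO1 (adjusted p = 0.00691) and -0.62 ± 0.0874 for EBP (adjusted p = 0.000515). Both sets of values were apart between the lines.

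Smaller differences were measured for the remaining enzymes of this branch. FDFT1, squalene synthase, differed by -0.55 ± 0.112 (adjusted p = 0.00385), SQLE, squalene epoxidase, by -0.41 ± 0.127 (adjusted p = 0.0269), and HSD17B7, a sterol ketoreductase, by -0.40 ± 0.121 on the log2 scale (adjusted p = 0.0248). HSD17B7 was the least expressed of the 18 sterol enzymes, at 8.39 RPKM in BRCA1+ control cells, and a near copy, HSD17B7P2, is listed in the same table. Reads shared between such copies (FDPS has one too, FDPSP2) may have been assigned to either. TM7SF2, a sterol reductase, and NSDHL, a sterol dehydrogenase, did not pass, with log2 fold changes of -0.18 ± 0.125 (adjusted p = 0.271) and -0.098 ± 0.0753 (adjusted p = 0.329). TM7SF2 levels overlapped between the lines, and the gene overlaps VPS51 in position.

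**Figure D2:**
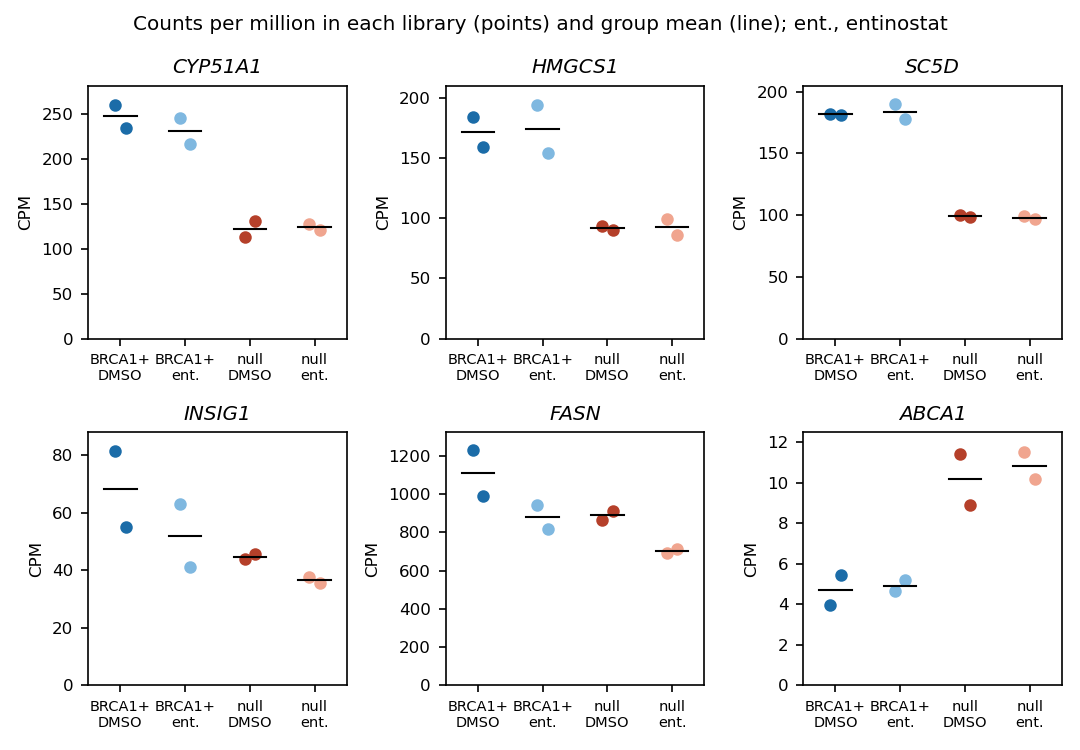
CPM (vertical axes, each starting at 0) of 6 genes in the 4 groups (horizontal axis), with 1 point per library and a line at the group mean. CYP51A1, HMGCS1 and SC5D separate the lines in both treatments, and INSIG1 has widely spaced BRCA1+ replicates. FASN points are lower with entinostat in each line, though FASN was not called within either line. ABCA1 is higher in the BRCA1-null libraries.

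Among the SREBP factors and their regulators 2 of 5 genes were lower in BRCA1-null cells in DMSO. SREBF2, which encodes the SREBP that chiefly drives cholesterol genes (hg19 chr22:42229083-42303312, plus strand), had 255 and 253 CPM in BRCA1+ control, 173 and 202 CPM in BRCA1-null control, 241 and 247 CPM in BRCA1+ entinostat, and 169 and 198 CPM in BRCA1-null entinostat libraries. The lines did not overlap, and the log2 fold change in DMSO was -0.44 ± 0.0888 (adjusted p = 0.00375). Its own promoter held the strict sterol response element shown above. SREBF1, whose product chiefly drives fatty acid genes, had 105 and 107 CPM against 90.8 and 100.5 CPM in the control libraries and did not pass (-0.15 ± 0.0873, adjusted p = 0.199).

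INSIG1, an anchor of SCAP and itself a well-known SREBP target (hg19 chr7:155089486-155101945, plus strand), was at 81.4 and 55.1 CPM in BRCA1+ control, 43.7 and 45.7 CPM in BRCA1-null control, 63.1 and 40.9 CPM in BRCA1+ entinostat, and 37.7 and 35.4 CPM in BRCA1-null entinostat libraries. The BRCA1+ replicates differed more from each other than the BRCA1-null ones. Its log2 fold change in DMSO was -0.61 ± 0.205, the widest error among the 32 genes, with an adjusted p of 0.0395. The call was lost without BRCA1+ control replicate 1 and without either BRCA1-null control replicate. The related INSIG2 and the escort protein SCAP had log2 fold changes of 0.097 ± 0.0810 and 0.04 ± 0.0589 and did not pass (adjusted p = 0.369 and 0.640).

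Fatty acid synthesis differed less. ACLY, ATP citrate lyase, had 532 and 477 CPM in BRCA1+ control and 349 and 373 CPM in BRCA1-null control libraries, a log2 fold change of -0.48 ± 0.0709 (adjusted p = 0.000639). FASN, fatty acid synthase, had 1233 and 988 CPM against 865 and 913 CPM, a log2 fold change of -0.32 ± 0.100 (adjusted p = 0.0284). Both were lower without an overlap between the lines. ACACA, acetyl-CoA carboxylase, and SCD, the stearoyl-CoA desaturase, had log2 fold changes of -0.19 ± 0.0755 (adjusted p = 0.0732) and -0.27 ± 0.127 (adjusted p = 0.116) and did not pass. Their control libraries did not overlap, but neither did those of NSDHL, SREBF1, INSIG2 and MYLIP, which also did not pass. The share of all tested genes without overlap was not computed. The median over the 4 genes was -0.30.

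The 5 tested transport and LXR genes were mixed, with 2 called higher, 1 called lower and a median log2 fold change of -0.048. ABCA1 (hg19 chr9:107543284-107690527, minus strand) was the gene with the largest absolute log2 fold change of the 32: it stood at 3.95 and 5.45 CPM in BRCA1+ control, 11.5 and 8.90 CPM in BRCA1-null control, 4.64 and 5.19 CPM in BRCA1+ entinostat, and 11.5 and 10.2 CPM in BRCA1-null entinostat libraries. It was 2.13-fold higher in BRCA1-null cells in DMSO (log2 fold change 1.09 ± 0.183, adjusted p = 0.00132). The receptors of the LXR family went opposite ways. NR1H3, LXR alpha, was higher in BRCA1-null cells, with 10.4 and 11.1 CPM against 13.0 and 15.0 CPM in the control libraries (0.38 ± 0.118, adjusted p = 0.0277), and NR1H2, LXR beta, was lower, with 42.1 and 42.7 CPM against 35.1 and 34.3 CPM (-0.29 ± 0.0682, adjusted p = 0.00802). NR1H3 overlaps ACP2 on the other strand. The lysosomal cholesterol carrier NPC1 and the ubiquitin ligase MYLIP, an LXR target, had log2 fold changes of -0.05 ± 0.117 (adjusted p = 0.773) and -0.20 ± 0.104 (adjusted p = 0.144) and did not pass.

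The same comparison under entinostat used 4 other libraries, but of the same lines and in the same fit. Replicate differences in control and entinostat libraries correlated across genes, at 0.447 in BRCA1+ and 0.332 in BRCA1-null cells. It is therefore not an independent repeat. Of the 32 genes, 19 were called (59.4%, against 39.4% of all tested genes), 17 lower (53.1%, against 18.9% of all tested genes) and 2 higher, with a median log2 fold change of -0.35 against 0.019 over all tested genes. All 19 had also been called in DMSO and all 19 kept their sign. Over all tested genes 5700 of the 6973 called in entinostat had also been called in DMSO, and 5697 of those 5700 kept their sign, so a shared sign among genes called in both is not particular to the list. The sign was shared by 31 of the 32 genes (96.9%), where 83.4% of all tested genes shared it. PMVK was the exception, with values near 0 in both (-0.07 and 0.029). SQLE, HSD17B7 and INSIG1 were called in DMSO alone, and under entinostat they had log2 fold changes of -0.31 ± 0.127, -0.29 ± 0.126 and -0.49 ± 0.213 (adjusted p = 0.0789, 0.0954 and 0.0960).

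The order of the genes under entinostat was much the same. SC5D (-0.91 ± 0.0560, adjusted p = 5.84e-06), HMGCS1 (-0.91 ± 0.117, adjusted p = 0.000312) and CYP51A1 (-0.89 ± 0.0915, adjusted p = 8.25e-05) again had the largest negative log2 fold changes, and ABCA1 was again highest (1.13 ± 0.186, adjusted p = 0.00121). The other called genes of the mevalonate pathway were IDI1 (-0.78), MVD (-0.76), ACAT2 (-0.70), MVK (-0.54) and FDPS (-0.37). From squalene to cholesterol they were MSMO1 (-0.64), EBP (-0.57), LSS (-0.54), DHCR7 (-0.47) and FDFT1 (-0.41). ACLY (-0.44), SREBF2 (-0.42), FASN (-0.33) and NR1H2 (-0.20) were lower as well, and NR1H3 was higher (0.45). NR1H2 passed only narrowly, at an adjusted p of 0.0465. Leaving out 1 entinostat library took the call from DHCR7, FASN, FDFT1, MSMO1, MVK, NR1H2 and NR1H3, and 13 calls were left without BRCA1+ entinostat replicate 1. The forest plot of both line comparisons sets these values side by side.

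**Figure D3:**
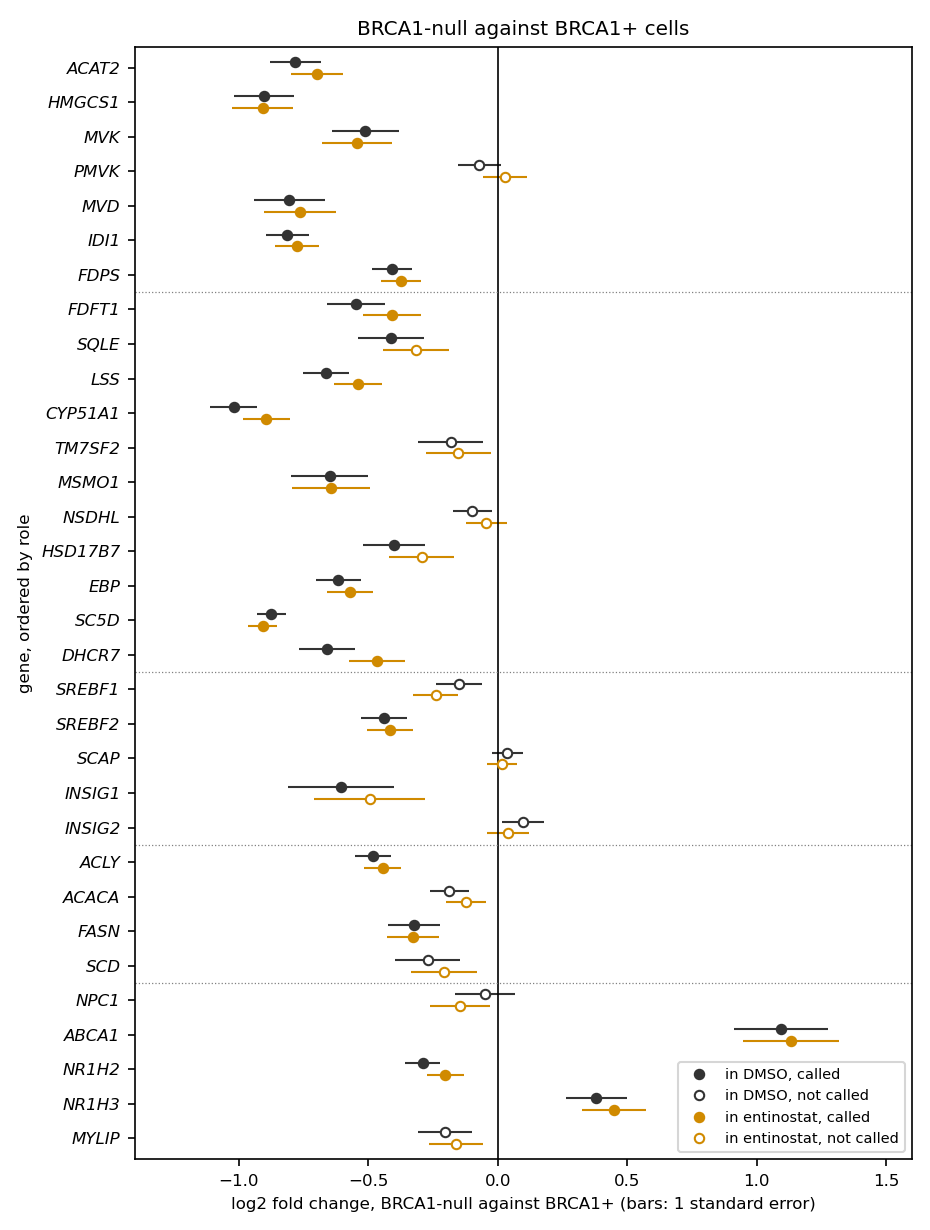
Log2 fold changes of BRCA1-null against BRCA1+ cells (horizontal axis, bars of 1 standard error) for the 32 tested genes (vertical axis), in DMSO (dark) and in entinostat (orange), with filled points for genes called. The 2 values of each gene lie close together, with a largest difference of 0.19, and the 15 called sterol enzymes lie between -1.02 and -0.40 in DMSO.

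The genes at neighbouring positions had a median change near 0 around most of these genes. Such a median can hide changes in both directions, and 42.2% of all tested genes were called in DMSO. The 50 neighbours could also span a wide stretch, for HSD17B7 chr1:121107152-206581301. A cause by position was not tested. The median log2 fold change in DMSO of the 50 tested genes nearest to each member on its chromosome lay between -0.21 and 0.46, and it was within 0.2 of 0 for 25 of the 32. Of the 32 genes, 27 were lower than their neighbours' median, by 0.46 at the median over all 32. Since 28 of the 32 had negative values themselves and neighbour medians lay mostly near 0, this count largely repeats those values. The same share over all tested genes was not computed. Around SC5D the neighbours had a median of 0.46, around MVK 0.44 and around HMGCS1 0.34, all above 0 where the genes themselves were below. Around ABCA1 it was -0.13.

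**Figure D4:**
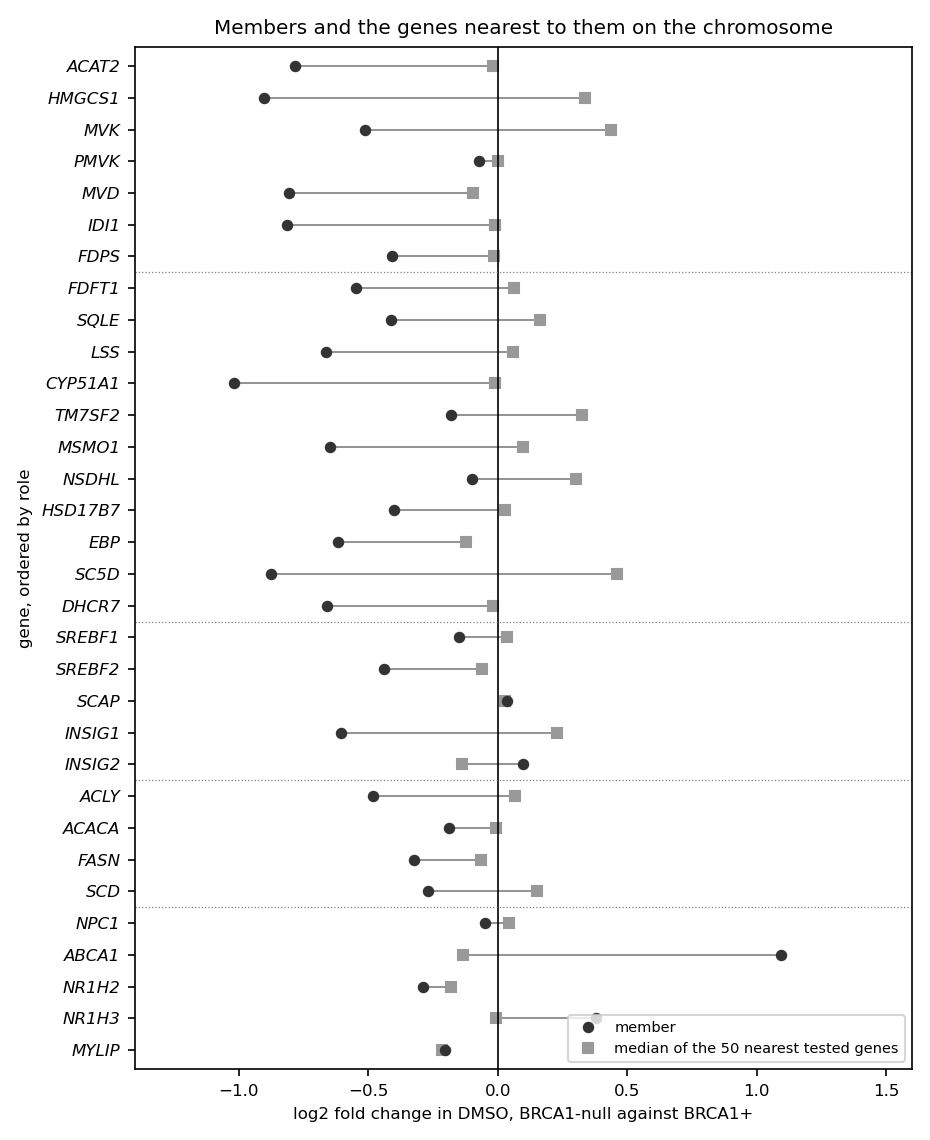
Log2 fold change in DMSO of BRCA1-null against BRCA1+ cells (horizontal axis) for each of the 32 tested genes (circles, vertical axis) and the median of the 50 tested genes nearest to it on the chromosome (squares), joined by a line. Most squares lie within 0.2 of 0, while the circles of the sterol enzymes lie to the left of them.

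Many of these genes moved together between the 2 replicates in both BRCA1+ groups and in BRCA1-null control cells. In BRCA1-null entinostat cells the tilt was slight. In BRCA1+ control cells replicate 1 was above replicate 2 for 27 of the 32 genes (84.4%), with a median log2 difference of 0.14, and in BRCA1+ entinostat cells for 24 (75%, median 0.10). Over all tested genes the shares were 49.5% and 50.2%. In BRCA1-null cells the tilt over the 32 ran the other way, at 9 (28.1%, median -0.085) in control and 13 (40.6%, median -0.048) in entinostat libraries. The shares over all tested genes were 49.2% and 50.1% there. Of the 18 sterol synthesis enzymes, 17 (94.4%) were higher in replicate 1 in each BRCA1+ group. In BRCA1-null cells 5 of the 18 (27.8%) were so in control and 9 (50%, median 0.0093) in entinostat libraries. The 32 genes thus share variation between libraries and are not independent readings. BRCA1+ control replicate 1, the higher of its pair, is the library whose omission left the fewest calls in DMSO, 16 instead of 22. The median log2 fold change of the 32 stayed between -0.49 and -0.31 over all alternatives tried.

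Few of these genes passed the test for entinostat within a line, and the count depended on the model. In BRCA1+ cells 1 of the 32 was called (3.12%, against 14.1% of all tested genes, and 6% of them called lower), DHCR7, which fell by 0.42 ± 0.107 on the log2 scale (adjusted p = 0.0334) from 386 and 328 to 288 and 248 CPM. The other 31 had log2 fold changes between -0.40 and 0.28 and adjusted p between 0.0543 and 0.969, and 11 of the 32 had an unadjusted p under 0.05, as had 29% of all tested genes. The call for DHCR7 was lost without BRCA1+ control replicate 1 (adjusted p = 0.167) and without BRCA1+ entinostat replicate 1 or 2 (adjusted p = 0.0574 and 0.206). In BRCA1-null cells edgeR called 0 of the 32, where 10.8% of all tested genes were called, with 3 at an unadjusted p under 0.05 (27.4% of all tested genes). DESeq2 called 1. The highest counts among the alternatives, 9 of 32 in BRCA1+ and 3 of 32 in BRCA1-null cells, came from a fit with the replicate number as a block, under which 4319 and 3641 of all genes were called instead of 2505 and 1906. Log2 fold changes ran from -0.34 to 0.22, and the lowest adjusted p was that of FASN, 0.0635.

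The response to entinostat did not pass a test of difference between the lines for any of these genes. The interaction term, the entinostat log2 fold change of the BRCA1-null line less that of the BRCA1+ line, lay between -0.097 and 0.19, with 0 of 32 called by edgeR or DESeq2 and 0 at an unadjusted p under 0.05. Of all 17714 tested genes edgeR called 0 (0%), with 827 (4.67%) at an unadjusted p under 0.05, and DESeq2 called 11. The standard errors of the term ran from 0.0785 for SC5D to 0.295 for INSIG1, which sets the size of difference that 2 libraries per group can show. DHCR7 had the largest value, 0.19 ± 0.152.

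**Figure D5:**
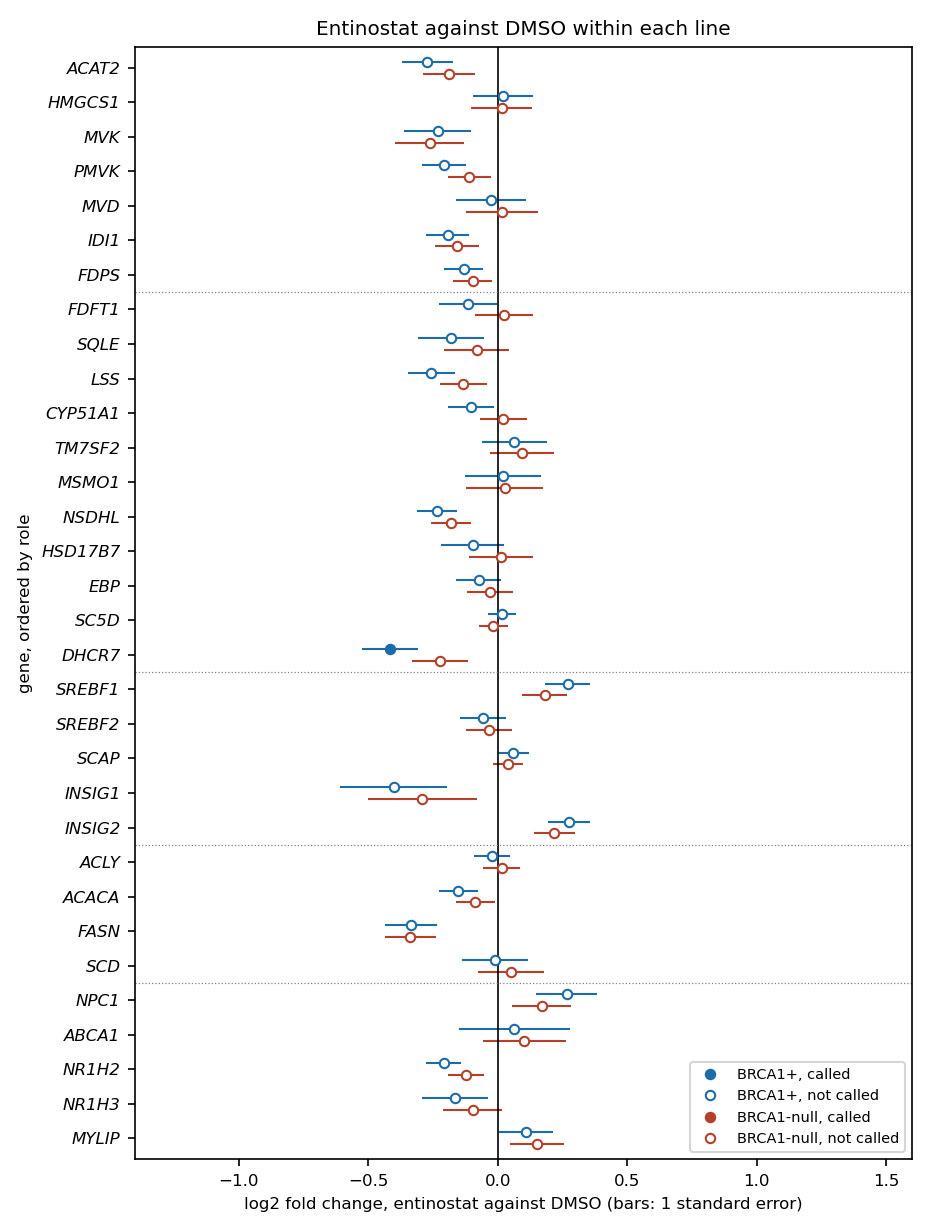
Log2 fold changes of entinostat against DMSO (horizontal axis, bars of 1 standard error) for the 32 tested genes (vertical axis) in BRCA1+ (blue) and BRCA1-null (red) cells, with filled points for genes called. All values lie between -0.42 and 0.28 and DHCR7 in BRCA1+ cells is the 1 filled point. The horizontal scale is that of the plot of the line comparisons.

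Averaged over both lines, a contrast added after seeing the data that uses the same libraries as the 2 entinostat comparisons, 7 of the 32 genes were called (21.9%, against 26.1% of all tested genes), 5 of them lower and 2 higher, where 10.9% and 15.2% of all tested genes were. FASN fell by 0.34 ± 0.0708 on the log2 scale (adjusted p = 0.00868), DHCR7 by 0.32 ± 0.0759 (adjusted p = 0.0142), ACAT2 by 0.23 ± 0.0703 (adjusted p = 0.0399), NSDHL by 0.21 ± 0.0541 (adjusted p = 0.0208) and NR1H2 by 0.17 ± 0.0490 (adjusted p = 0.0352). FASN went from 1233 and 988 CPM in control to 944 and 819.6 CPM in entinostat libraries of BRCA1+ cells, and from 865 and 913 CPM to 693 and 714 CPM in BRCA1-null cells. Within each line the entinostat libraries were below the control ones. INSIG2 rose by 0.25 ± 0.0571 (adjusted p = 0.0127), from 35.4 and 34.6 to 39.3 and 45.1 CPM in BRCA1+ and from 36.9 and 37.9 to 44.8 and 42.2 CPM in BRCA1-null cells, and SREBF1 rose by 0.23 ± 0.0617 (adjusted p = 0.0256), from 105 and 107 to 117 and 138 CPM and from 90.8 and 100.5 to 105 and 113 CPM. INSIG2 holds back SREBP processing, and SREBF1 encodes an SREBP. Of the 7, FASN kept its call in each alternative that asked for the adjusted p alone. The others lost theirs without 1 or more libraries, and without BRCA1+ entinostat replicate 2 the count was 1.

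Other genes of the same pathways, a list of 57 of which 55 were tested, were more mixed between the lines. In DMSO 32 of the 55 were called (58.2%), 21 lower and 11 higher, with a median log2 fold change of -0.19. Of all tested genes 42.2% were called, 21% lower and 21.1% higher. In fatty acid synthesis, elongation and desaturation 12 of 21 were lower and 2 higher, and in SREBP processing and degradation 6 of 11 were lower and none of the others passed. In cholesterol storage, transport and LXR partners 8 of 13 were higher and 1 lower, and in further sterol and isoprenoid synthesis 2 of 10 were lower and 1 higher. The largest negative values belonged to THRSP, a regulator of fatty acid synthesis (-2.04 ± 0.425, adjusted p = 0.00438, with 3 to 35 counts in the 8 libraries), ACSS2, which makes acetyl-CoA from acetate (-1.50 ± 0.167, adjusted p = 0.000128), and MLXIPL, the carbohydrate-responsive factor ChREBP (-1.19 ± 0.377, adjusted p = 0.0305). The largest positive value was that of CYP7B1, an oxysterol hydroxylase (1.89 ± 0.542, adjusted p = 0.0205, with 4 to 57 counts). The acyl-CoA synthetase ACSL5 (1.71 ± 0.296, adjusted p = 0.00165, with 11 to 105 counts) and the sterol 27-hydroxylase CYP27A1 (1.47 ± 0.256, adjusted p = 0.00167, with 29 to 111 counts) followed, also at low counts. MLXIPL and CYP7B1 lost these calls when 1 control library was left out, with adjusted p of up to 0.163 and 0.130. Under entinostat 20 of the 55 were lower and 12 higher between the lines (18.9% and 20.5% of all tested genes), led by THRSP (-2.66), ACSS2 (-1.58) and MLXIPL (-1.17) on the lower and ACSL5 (2.88), CYP7B1 (2.62) and RXRA (1.44), the LXR partner, on the higher side.

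With entinostat 15 of the 55 other genes were called in BRCA1+ cells (27.3%), 13 higher and 2 lower, and 13 in BRCA1-null cells (23.6%), all of them higher. Of all tested genes 8.15% and 7.57% were called higher. ABCG4, a sterol transporter, had a log2 fold change with entinostat of 2.24 ± 0.289 in the BRCA1+ line and 1.68 ± 0.255 in the BRCA1-null line (adjusted p = 0.00221 and 0.00590), and MLXIPL rose by 1.88 ± 0.256 (adjusted p = 0.00273) and 1.90 ± 0.337 (adjusted p = 0.0106). The elongases of very long fatty acids came next and were called in each line, ELOVL4 at 1.71 ± 0.203 in the BRCA1+ and 1.61 ± 0.212 in the BRCA1-null line (adjusted p = 0.00152 and 0.00330) and ELOVL2 at 1.67 ± 0.356 and 1.69 ± 0.429 (adjusted p = 0.0164 and 0.0390). In BRCA1-null cells ELOVL2 had only 38 and 28 counts in control and 136 and 54 in entinostat libraries. Its call there was also lost with thinned counts and in the fit of only the groups compared. The 2 genes lower in BRCA1+ cells were MID1IP1 (-0.37 ± 0.0850, adjusted p = 0.0230), an activator of acetyl-CoA carboxylase, and SCARB1 (-0.20 ± 0.0539, adjusted p = 0.0388), a lipoprotein receptor. Leaving out 1 library took the call in BRCA1-null cells from ELOVL2 and MLXIPL and in BRCA1+ cells from MID1IP1 and SCARB1, with adjusted p of up to 0.233, 0.0631, 0.118 and 0.175.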

How the data were processed

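Poly(A) RNA was sequenced in 8 libraries, and the titles gave each one's group and replicate number. The authors deposited raw read counts per gene after aligning reads to hg19 with TopHat (TopHat 2 in their methods) and quantifying genes with NGSUtils, so the counts carry no normalisation. The annotation release, the use of strand and the handling of reads with several positions are not given in the sources used here. Positions are those of the deposited table, counted from 1. Promoter sequences are RefSeq windows of GRCh38.p14, and 5 of the 33 genes had none.

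Differences were tested on the counts by edgeR 4.0.16 under R 4.3.3. The function filterByExpr, given the 4 groups, left 17714 genes. After TMM scaling, 1 quasi-likelihood model (legacy set to FALSE) took all 8 libraries and a mean for each group, which leaves 4 residual degrees of freedom. The common biological coefficient of variation was 9.04%. Tests were two-sided with Benjamini-Hochberg adjustment over all tested genes, and a gene was called at an adjusted p under 0.05. Errors are standard errors of the log2 fold change. Nothing states that the 2 libraries of a group came from separate cultures, so p-values measure only the spread between these libraries, which may be technical. A single value compared 2 against 2 by exact permutation cannot reach a p below 0.333. The test script was tested on simulated data.

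The 33 genes, the lists and the alternatives were chosen with earlier results of these data known. Named genes were every called gene of the list in each comparison, with all 8 libraries given for up to 12 with the largest absolute log2 fold change and no overlap, and up to 3 other pathway genes in each direction. Lists were described by counts and medians, with no test over a list. As alternatives the scaling was replaced by upper-quartile factors or those of DESeq2, and the filter by none or by 1 CPM in 4 libraries. Others were the DESeq2 1.42.0 Wald test, the legacy estimate, the likelihood ratio test, the replicate number as a block, counts thinned to the smallest total, only the groups compared, a log2 fold change of at least 1, and each library left out. The contrast averaged over both lines, the neighbour medians and the replicate differences were added after seeing the data. Figures were drawn with matplotlib 3.10.9.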

Additional observations from a re-analysis of the deposited data

How the results depend on the processing

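No called gene of the 33 changed direction under any alternative. Of the genes called between the lines, 15 of 22 in DMSO and 12 of 19 in entinostat kept their call under the 18 alternatives that asked for the adjusted p alone. INSIG1 in DMSO lost it with upper-quartile factors, the stricter filter, DESeq2 and 3 left-out libraries, and NR1H2 in entinostat lost it under 14. Asking also that the log2 fold change reach 1 in size left 2 genes in DMSO, CYP51A1 and ABCA1, and 1 in entinostat, ABCA1, and left 0 for entinostat in BRCA1+ cells and 0 for the average over both lines. Leaving out each library in turn gave 16 to 23 genes between the lines in DMSO, 13 to 20 in entinostat, 0 to 2 for entinostat in BRCA1+ cells, 0 to 1 in BRCA1-null cells and 1 to 8 for the average. The count of 1 in BRCA1+ cells became 0 without BRCA1+ control replicate 1 or BRCA1+ entinostat replicate 2, and 2 without BRCA1+ control replicate 2. In BRCA1-null cells 1 gene was called without either BRCA1+ control replicate. The average over both lines fell to 4 without BRCA1+ control replicate 1, BRCA1-null control replicate 2 or BRCA1-null entinostat replicate 1, and to 1 without BRCA1+ entinostat replicate 2. For entinostat in BRCA1+ cells upper-quartile factors, the stricter filter and the DESeq2 test gave 3 genes each, the likelihood ratio test 4, and a fit of only the 2 groups compared 2. In BRCA1-null cells the DESeq2 test, the likelihood ratio test and the fit of only the 2 groups each gave 1. The interaction gave 0 genes under every alternative that could be fitted (a fit of only 2 groups gives neither this term nor the average). The cause of these changes was not tested.

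With the replicate number as a block, 25 genes were called in DMSO, 22 in entinostat, 9 for entinostat in BRCA1+ and 3 in BRCA1-null cells, 0 for the interaction and 13 for the average. The labels do not say that a number marks a shared batch, and each comparison has only 2 numbers, so the pairing was not used. Deviations of libraries with the same number correlated positively across genes, at 0.116 to 0.447 over the 6 pairs of groups. The largest values were between control and entinostat of the same line, 0.447 in BRCA1+ and 0.332 in BRCA1-null cells. The fit without a block does not account for this shared variation. Over all genes the alternatives ran from 2204 to 8954 calls in DMSO (7472 as reported), 1863 to 8394 in entinostat (6973), 518 to 4319 for entinostat in BRCA1+ (2505), 512 to 3641 in BRCA1-null cells (1906), 0 to 18 for the interaction (0) and 683 to 6349 for the average (4622).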
